A study of Mus musculus with 9 samples.

Results

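Scavenger and efferocytosis receptors are the surface proteins with which macrophages take up modified lipoproteins, microbes and dying cells. The set described here was chosen by name and holds 8 genes, Msr1, Marco, Scarb1, Lrp1, Mrc1, Clec7a, Mertk and Axl, of the 55487 genes counted. Each symbol matched 1 Ensembl identifier in the mm10 annotation, and 7 of the 8 had enough counts to be tested, Axl being the exception. The 7 passed with their counts in every library, the lowest being 26 for Marco and 69 for Mrc1. Expression was compared in J774A.1, a mouse macrophage line, between cells with sgRNA 11 against Slc12a9, cells with sgRNA 15 against Slc12a9 and cells with a control guide called safe, in 3 libraries each. Slc12a9 encodes a member of the cation-chloride cotransporter family, studied in the series for its role in lysosomal osmolarity. All 9 libraries came from cells grown with 10% fetal bovine serum and glutamine and then kept for 6 h in medium free of serum and glutamine, so a fed state was not measured in these libraries. The genotype label calls the cells of both Slc12a9 guides knockdown, the design text calls them knockout and the control label is WT. The labels do not say whether the cells of a guide were 1 clone or a pool, or whether replicates were separate cultures. The p-values therefore measure only the spread between these libraries, which may be technical.

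Class A scavenger receptors, encoded by Msr1 and Marco, carry a collagen-like stem and bind polyanions such as oxidised lipoproteins and bacterial walls. Scarb1 encodes SR-BI, a class B receptor for high-density lipoprotein that also binds phosphatidylserine, and Lrp1 encodes a large endocytic lipoprotein receptor. Mrc1, the mannose receptor, and Clec7a, known as dectin-1, are lectins for microbial sugars. Mertk and Axl are receptor tyrosine kinases that bind phosphatidylserine on dying cells through bridging ligands, Gas6 for both and also protein S for Mertk. Cargo taken up by these receptors is delivered to endosomes or phagosomes and from there to lysosomes.

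Gene counts summed to 17617390 to 22622692 in the sgRNA 11 libraries, 16405296 to 23521052 with sgRNA 15 and 18817850 to 25613961 with safe sgRNA. The level unit is CPM, counts scaled to a common library size and adjusted by TMM (trimmed mean of M-values), and 13453 genes were tested with edgeR's quasi-likelihood test. A gene is called higher or lower at an adjusted p under 0.05, with Benjamini-Hochberg adjustment over all tested genes. Slc12a9 mRNA was not lowered by either guide, at 65.3 ± 2.38 CPM with sgRNA 11, 49.97 ± 1.73 CPM with sgRNA 15 and 48.4 ± 4.49 CPM with safe sgRNA (SD, n = 3 each), so groups are called by the guide on their label. Safe replicate 1 stood somewhat apart. A chi-square of its counts against the other safe libraries gave 6.83 and 5.16 per degree of freedom, and the remaining replicate pairs gave 1.76 to 4.05. Mitochondrial transcripts took 1.43 to 1.53% of counts with sgRNA 11, 1.59 to 1.61% with sgRNA 15 and 1.63 to 1.76% with safe sgRNA. All 10 macrophage markers were detected, and their summed level was 9885 to 10200 CPM with sgRNA 11, 8181 to 8273 CPM with sgRNA 15 and 6348 to 6507 CPM with safe sgRNA. Of that sum, Lyz2 held 4429 to 4603 CPM with sgRNA 11, 3537 to 3609 CPM with sgRNA 15 and 1658 to 1862 CPM with safe sgRNA. Markers of T cells, B cells and epithelial cells passed the filter for 0 of 14 genes, with Cd3e and Epcam at 0 in every library. Among 4 endothelial markers Vwf stood at 7.81 to 10.6 CPM with sgRNA 11, 7.19 to 9.50 CPM with sgRNA 15 and 1.36 to 1.89 CPM with safe sgRNA, while Pecam1 was at most 1.04 CPM and Kdr at most 0.505 CPM in any library. Cdh5 went the other way from Vwf, at 1.631 to 1.98 CPM with sgRNA 11, 1.271 to 1.979 CPM with sgRNA 15 and 2.324 to 2.555 CPM with safe sgRNA. The summed level of 6 neutrophil markers was 3.17 to 4.09 CPM with sgRNA 11, 3.49 to 4.06 CPM with sgRNA 15 and 1.77 to 2.84 CPM with safe sgRNA, with S100a9 and Cxcr2 at 0 in every library. Dendritic cell markers (4 genes) summed to 3.74 to 5.59 CPM with sgRNA 11, 5.33 to 5.65 CPM with sgRNA 15 and 3.74 to 4.32 CPM with safe sgRNA, and fibroblast markers (5 genes) to 1.84 to 2.46 CPM with sgRNA 11, 1.88 to 2.61 CPM with sgRNA 15 and 1.21 to 1.68 CPM with safe sgRNA. The part of these shifts in the receptor values was not tested. In bulk RNA, fewer cells that express a receptor and less RNA per cell cannot be told apart.

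The promoters of 3 receptors are printed because Lrp1 and Mertk were higher and Clec7a was lower with both guides. Each window runs from 250 bases before to 50 bases after the start of the gene in RefSeq, build GRCm38.p6, 5′ to 3′ on the strand of the gene, and CG dinucleotides are in capitals. The Lrp1 window is chr10:127621099-127621398 on the minus strand, that of Mertk is chr2:128698665-128698964 on the plus strand, and that of Clec7a is chr6:129472730-129473029 on the minus strand.
Lrp1: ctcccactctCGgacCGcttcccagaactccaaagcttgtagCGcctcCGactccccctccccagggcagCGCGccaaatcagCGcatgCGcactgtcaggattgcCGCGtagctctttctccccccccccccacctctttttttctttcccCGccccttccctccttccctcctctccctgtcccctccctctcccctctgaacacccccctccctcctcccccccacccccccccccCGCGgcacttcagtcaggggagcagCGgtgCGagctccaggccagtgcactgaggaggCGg
Mertk: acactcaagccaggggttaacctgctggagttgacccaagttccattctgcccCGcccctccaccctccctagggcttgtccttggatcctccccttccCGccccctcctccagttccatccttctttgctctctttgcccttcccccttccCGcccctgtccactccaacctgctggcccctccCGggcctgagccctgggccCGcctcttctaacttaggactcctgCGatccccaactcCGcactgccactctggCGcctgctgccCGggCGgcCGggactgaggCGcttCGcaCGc
Clec7a: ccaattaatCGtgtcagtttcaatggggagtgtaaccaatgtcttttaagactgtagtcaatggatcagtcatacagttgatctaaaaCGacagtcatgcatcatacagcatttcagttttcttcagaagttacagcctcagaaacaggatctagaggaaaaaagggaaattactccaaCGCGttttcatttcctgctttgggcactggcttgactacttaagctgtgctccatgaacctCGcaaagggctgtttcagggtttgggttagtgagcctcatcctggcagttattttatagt
The risen pair had CG-rich promoters, with 16 CG dinucleotides in the Lrp1 window and 14 in that of Mertk, at 67.7% and 66.0% G or C. Clec7a had 5 CG dinucleotides and 42.0% G or C. Across the first window of 27025 genes the median was 7 CG dinucleotides and 52.7% G or C. Of the other receptors in the table, Axl had 6, Mrc1 had 3 and Marco had 0 CG dinucleotides. No window was available for Msr1 and Scarb1, which are named only, although Scarb1 was lower with both guides. Whether CG content goes with the direction of change was not tested. A search on both strands found none of 4 short motifs in the windows of the 6 receptors in the table. These motifs were CACGTG, the E-box core of the CLEAR element that TFEB binds and present in 8.09% of all genes, GAGGAAGT for PU.1 (3.69%), TGACTCA for AP-1 (5.95%) and TGATGNAAN for the C/EBP-ATF response element (4.50%). Whether such letters lie outside these windows was not examined.

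With sgRNA 11, 3 of the 7 tested receptors were higher than with safe sgRNA (Msr1, Lrp1 and Mertk) and 3 were lower (Marco, Scarb1 and Clec7a). Mrc1 was not called. The background was high, since 65.8% of all tested genes were called in this comparison, 33.3% higher and 32.4% lower. With sgRNA 15, 3 receptors were higher (Lrp1, Mertk and Mrc1), 2 were lower (Scarb1 and Clec7a) and 2 were not called (Msr1 and Marco), beside 62.9% of all tested genes called, 32.2% higher and 30.7% lower. The number of receptors called with either guide is therefore close to what the whole transcriptome showed, while single receptors differed in size and direction. Against a minimum log2 change of 0.5, edgeR's glmTreat kept 2 receptors with sgRNA 11 (Lrp1 and Scarb1), beside 16.4% of all tested genes, and 2 with sgRNA 15 (Scarb1 and Clec7a), beside 12.9%. Groups did not overlap in CPM for 5 receptors with sgRNA 11, where 67.7% of all tested genes did not overlap, and for 5 with sgRNA 15, where 65.8% did not. Over the 7 receptors the log2 fold change had a median of -0.24 for sgRNA 11 and 0.01 for sgRNA 15, and over all tested genes it was 0.01 for each. In absolute size the median was 0.55 for sgRNA 11 and 0.40 for sgRNA 15, beside 0.32 for sgRNA 11 and 0.29 for sgRNA 15 over all tested genes. Both comparisons use the same 3 safe libraries, so they are not independent of each other. Lrp1 and Mertk were higher and Scarb1 and Clec7a lower with both guides, 4 of 7 receptors, where 51.7% of all tested genes were called in the same direction with both.

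**Figure D1:**
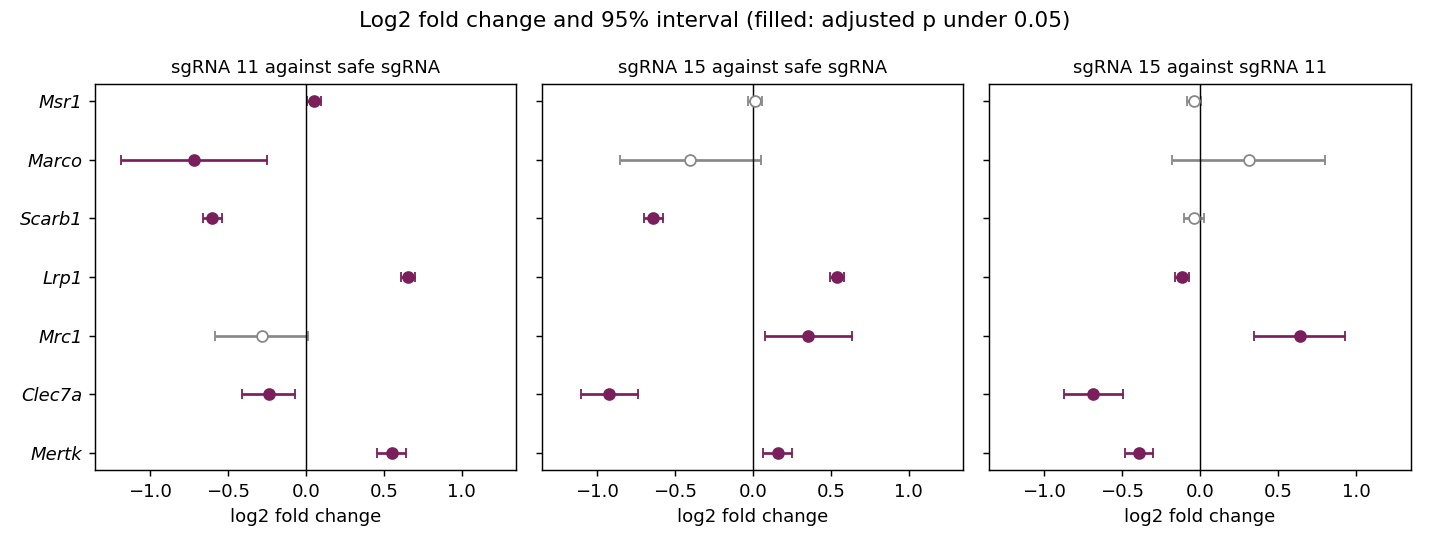
Log2 fold change (points) with its 95% interval (bars) of the 7 tested receptors in 3 panels, which set sgRNA 11 and sgRNA 15 against safe sgRNA and then sgRNA 15 against sgRNA 11; filled points passed an edgeR adjusted p under 0.05. Lrp1 lies at 0.66 and 0.54 and Scarb1 at -0.60 and -0.64 against safe sgRNA, Clec7a is lowest with sgRNA 15 (-0.92), and the intervals of Marco and Mrc1 are the widest.

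Of the class A receptors, the abundant Msr1 hardly moved and the scarce Marco was lower with sgRNA 11. Msr1 (ENSMUSG00000025044, mm10 chromosome 8, 39581685 to 39642673, minus strand) encodes scavenger receptor A, which takes up acetylated and oxidised LDL. Its level was 856, 839 and 827 CPM with sgRNA 11, 828, 814 and 812 CPM with sgRNA 15 and 837, 803 and 791 CPM with safe sgRNA. The 3 groups overlap, and safe replicate 1 lies among the libraries of the Slc12a9 guides. Msr1 was called higher with sgRNA 11 by a small margin (log2 0.05, SE 0.02, edgeR adjusted p = 0.0368). For sgRNA 15 the log2 difference was 0.01 (95% interval -0.03 to 0.06, edgeR adjusted p = 0.625). The sgRNA 11 call did not hold without safe replicate 2 (log2 0.03, edgeR adjusted p = 0.241), without safe replicate 3 (0.02, adjusted p = 0.385), without sgRNA 11 replicate 1 (0.05, adjusted p = 0.0909), without sgRNA 11 replicate 2 (0.06, adjusted p = 0.0501) or without sgRNA 15 replicate 3 (0.04, adjusted p = 0.0914). Removing trends with GC content and length moved that value to 0.17, and scaling by library size only moved it to 0.09, while the sign with sgRNA 15 turned without safe replicate 2 (-0.01) or 3 (-0.02).

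Marco (ENSMUSG00000026390, mm10 chromosome 1, 120474538 to 120505024, minus strand), the macrophage receptor with collagenous structure, binds unopsonised bacteria and particles. It was counted with 28, 26 and 42 reads with sgRNA 11, 33, 48 and 35 reads with sgRNA 15 and 51, 52 and 55 reads with safe sgRNA. In CPM these are 1.23, 1.45 and 1.90 with sgRNA 11, 1.59, 2.02 and 2.12 with sgRNA 15 and 2.04, 2.63 and 2.97 with safe sgRNA. Every sgRNA 11 library lies below every safe library, whereas sgRNA 15 overlaps the safe range. Marco fell with sgRNA 11 (log2 -0.71, SE 0.24, edgeR adjusted p = 0.00571), and with sgRNA 15 the difference was -0.40 (95% interval -0.85 to 0.05, edgeR adjusted p = 0.119). Without sgRNA 11 replicate 1 the sgRNA 11 value was -0.56 (edgeR adjusted p = 0.0582), and at the 26 to 55 reads of these libraries a change of the size measured with sgRNA 15 was not detectable.

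Scarb1, the receptor for high-density lipoprotein, fell to about the same level with both guides. Scarb1 (ENSMUSG00000037936, mm10 chromosome 5, 125277087 to 125341094, minus strand) was present at 130, 128 and 128 CPM with sgRNA 11, 121, 131 and 123 CPM with sgRNA 15 and 188, 194 and 203 CPM with safe sgRNA. All 6 libraries of the Slc12a9 guides lie below all 3 safe libraries, and the guides overlap each other. Scarb1 averaged 129 ± 0.924 CPM with sgRNA 11, 125 ± 5.25 CPM with sgRNA 15 and 195 ± 7.15 CPM with safe sgRNA (SD, n = 3 each). Its level was thus 66.0% of that with safe sgRNA for sgRNA 11 (log2 -0.60, SE 0.03, edgeR adjusted p = 1.29e-30) and 64.3% for sgRNA 15 (log2 -0.64, SE 0.03, edgeR adjusted p = 4.29e-32). The difference between the guides was -0.04 for sgRNA 15 against sgRNA 11 (95% interval -0.10 to 0.03, edgeR adjusted p = 0.400). Scarb1 lies on the same chromosome as Slc12a9, with 11973463 bases between them. Of the 20 tested genes within 1 Mb of Scarb1, a range picked with the values known, 12 were lower and 3 higher with each guide, and their log2 fold changes had a median of -0.28 for sgRNA 11 and -0.26 for sgRNA 15. Over all tested genes 32.4% were lower and 33.3% higher with sgRNA 11, and 30.7% were lower and 32.2% higher with sgRNA 15. The part of this neighbourhood in the Scarb1 difference was not tested.

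Lrp1 rose with both guides and took most of the reads of the 8 receptors. Its product clears protease and inhibitor complexes and lipoprotein remnants, and on phagocytes it serves as a receptor for calreticulin on dying cells. Lrp1 (ENSMUSG00000040249, mm10 chromosome 10, 127538161 to 127621148, minus strand) reached 2784, 2814 and 2894 CPM with sgRNA 11, 2583, 2676 and 2590 CPM with sgRNA 15 and 1764, 1765 and 1862 CPM with safe sgRNA. The 3 groups do not overlap, with sgRNA 11 highest and safe sgRNA lowest. The rise was 1.58-fold with sgRNA 11 (log2 0.66, SE 0.02, edgeR adjusted p = 6.01e-43) and 1.46-fold with sgRNA 15 (log2 0.54, SE 0.02, edgeR adjusted p = 4.96e-37). Removal of GC content and length trends made it smaller, at log2 0.48 with sgRNA 11 and 0.41 with sgRNA 15. These values lie below the intervals without that removal, 0.61 to 0.70 with sgRNA 11 and 0.50 to 0.59 with sgRNA 15. Both calls held (edgeR adjusted p = 8.86e-36 and 1.25e-31). Among all tested genes, 79.8% had a smaller absolute change than Lrp1 with sgRNA 11 and 75.3% with sgRNA 15. Against a minimum log2 change of 0.5, the edgeR call held with sgRNA 11 (adjusted p = 1.06e-09) and not with sgRNA 15 (adjusted p = 0.0636). The macrophage markers summed higher in the same libraries, as given above. With sgRNA 15 this sum was led by Lyz2, and single markers differed. Adgre1 was higher, at 44.9 to 50.8 CPM with sgRNA 15 and 27.5 to 31.1 CPM with safe sgRNA. Cd68 was higher with sgRNA 15 too (log2 0.39, edgeR adjusted p = 3.22e-25). With sgRNA 11, where the marker sum was highest, Cd68 was lower (log2 -0.17, edgeR adjusted p = 4.02e-09). Spi1 stood at 480 to 508 CPM with sgRNA 15 and 506 to 541 CPM with safe sgRNA. It was called lower with sgRNA 15 (log2 -0.10, edgeR adjusted p = 0.000343). With sgRNA 11 Spi1 was called higher (log2 0.11, edgeR adjusted p = 9.21e-05). Csf1r with sgRNA 15 overlapped the safe range. Their part in the Lrp1 values was not tested.

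The lectin receptors differed between the guides. Mrc1 (ENSMUSG00000026712, mm10 chromosome 2, 14229392 to 14332057, plus strand) encodes CD206, the mannose receptor that marks alternatively activated macrophages. It was scarce, with 93, 69 and 81 reads with sgRNA 11, 135, 135 and 98 reads with sgRNA 15 and 110, 98 and 90 reads with safe sgRNA. Its level was 4.09, 3.85 and 3.67 CPM with sgRNA 11, 6.52, 5.68 and 5.93 CPM with sgRNA 15 and 4.39, 4.95 and 4.86 CPM with safe sgRNA. The safe libraries lie between the guides, above every sgRNA 11 library and below every sgRNA 15 library. Mrc1 rose 1.28-fold with sgRNA 15 (log2 0.36, SE 0.14, edgeR adjusted p = 0.0230). With sgRNA 11 the difference was -0.28 (95% interval -0.58 to 0.02, edgeR adjusted p = 0.0910) and was not called. The sgRNA 15 call was lost with DESeq2 (adjusted p = 0.0600), without safe replicate 1 (edgeR log2 0.29, adjusted p = 0.103) and without sgRNA 15 replicate 1 (0.29, adjusted p = 0.104).

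Clec7a was lower with both guides, and more so with sgRNA 15. Its product dectin-1 binds the beta-glucan of fungal walls and signals through the kinase Syk and the adaptor Card9. Clec7a (ENSMUSG00000079293, mm10 chromosome 6, 129461591 to 129472779, minus strand), which GENCODE M21 annotates as a polymorphic pseudogene, stood at 16.5, 13.3 and 14.5 CPM with sgRNA 11, 9.37, 9.25 and 9.08 CPM with sgRNA 15 and 18.5, 18.3 and 15.6 CPM with safe sgRNA. All sgRNA 15 libraries lie below the other 6, while the sgRNA 11 and safe ranges overlap. With sgRNA 15 the level was 52.8% of that with safe sgRNA (log2 -0.92, SE 0.09, edgeR adjusted p = 5.84e-15), a larger absolute change than 91.1% of tested genes showed. With sgRNA 11 Clec7a fell by 0.24 on the log2 scale (SE 0.08, edgeR adjusted p = 0.0108). The sgRNA 11 call was lost after removal of GC content and length trends (-0.13, edgeR adjusted p = 0.166), without safe replicate 1 (-0.19, adjusted p = 0.0827) and without sgRNA 11 replicate 2 (-0.17, adjusted p = 0.0927).

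Syk and Card9 were higher with both guides. Syk averaged 79.9 ± 2.40 CPM with sgRNA 11, 71.6 ± 2.42 CPM with sgRNA 15 and 53.0 ± 1.00 CPM with safe sgRNA (SD, n = 3 each), and it rose with both guides (log2 0.59 with sgRNA 11 and 0.44 with sgRNA 15, edgeR adjusted p = 5.18e-22 and 4.84e-15). Card9 averaged 94.5 ± 3.22 CPM with sgRNA 11, 78.9 ± 0.488 CPM with sgRNA 15 and 49.7 ± 2.30 CPM with safe sgRNA and rose as well (log2 0.93 with sgRNA 11 and 0.67 with sgRNA 15, edgeR adjusted p = 8.57e-35 and 5.74e-25). Both were named for their known link to dectin-1 after their values were seen, and the whole list of dectin-1 signalling genes, given with the other lists, moved in both directions.

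Of the receptor tyrosine kinases, Mertk rose with both guides and Axl was close to the limit of detection. Mertk (ENSMUSG00000014361, mm10 chromosome 2, 128698956 to 128802894, plus strand) encodes the main efferocytosis kinase of resting macrophages. Its level was 65.97, 65.4 and 66.9 CPM with sgRNA 11, 51.6, 49.9 and 49.8 CPM with sgRNA 15 and 45.6, 45.9 and 43.8 CPM with safe sgRNA. No groups overlap, and sgRNA 15 lies nearer to safe sgRNA than to sgRNA 11. Mertk rose 1.46-fold with sgRNA 11 (log2 0.55, SE 0.05, edgeR adjusted p = 7.52e-19) and 1.12-fold with sgRNA 15 (log2 0.16, SE 0.05, edgeR adjusted p = 0.00250). The sgRNA 15 call was lost after removal of GC content and length trends (0.07, edgeR adjusted p = 0.173). The macrophage marker Csf1r, the receptor for colony-stimulating factor 1, was likewise highest with sgRNA 11, at 2595 to 2669 CPM with sgRNA 11, 1738 to 1754 CPM with sgRNA 15 and 1739 to 1783 CPM with safe sgRNA, and its part in the Mertk values was not tested.

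Axl (ENSMUSG00000002602, mm10 chromosome 7, 25757273 to 25788705, minus strand), which macrophages express under inflammatory stimulation, had 3, 4 and 6 reads with sgRNA 11, 2, 0 and 2 reads with sgRNA 15 and 2, 0 and 0 reads with safe sgRNA. It was listed at 0 reads in 1 sgRNA 15 library and 2 safe libraries, where a count of 0 allows up to 3 reads. The sums were 13 reads with sgRNA 11, 4 with sgRNA 15 and 2 with safe sgRNA, and the gene did not pass the filter on low counts. In a fit without that filter over 26475 genes, Axl was not called with sgRNA 11 (log2 2.55, SE 1.12, edgeR adjusted p = 0.0696). It was not called with sgRNA 15 either (log2 0.98, SE 1.34, edgeR adjusted p = 0.636). Each sgRNA 11 library had more Axl reads than each safe library, but at these counts a difference could be neither called nor excluded.

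Of the ligands that bridge Mertk to dying cells, Gas6 rose with sgRNA 15 and Pros1 with both guides. Gas6 stood at 6.69, 6.19 and 5.98 CPM with sgRNA 11, 10.96, 10.4 and 13.5 CPM with sgRNA 15 and 5.99, 5.51 and 6.37 CPM with safe sgRNA. The sgRNA 15 libraries are apart from the other 6 (log2 0.95 against safe sgRNA, SE 0.11, edgeR adjusted p = 7.55e-12), and sgRNA 11 overlaps safe sgRNA (log2 0.08, 95% interval -0.17 to 0.33, edgeR adjusted p = 0.584). Pros1, the gene of protein S, was scarce, with 31, 29 and 28 reads with sgRNA 11, 30, 37 and 27 reads with sgRNA 15 and 15, 12 and 16 reads with safe sgRNA. It was higher with each guide (log2 1.04 with sgRNA 11 and 1.17 with sgRNA 15, edgeR adjusted p = 0.00287 and 0.000765). Tyro3, the remaining kinase of the family, had 7 reads in each sgRNA 11 library, 12, 6 and 6 with sgRNA 15 and 13, 4 and 4 with safe sgRNA and was not tested. These partners were named for their known link to Mertk after their values were seen.

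**Figure D2:**
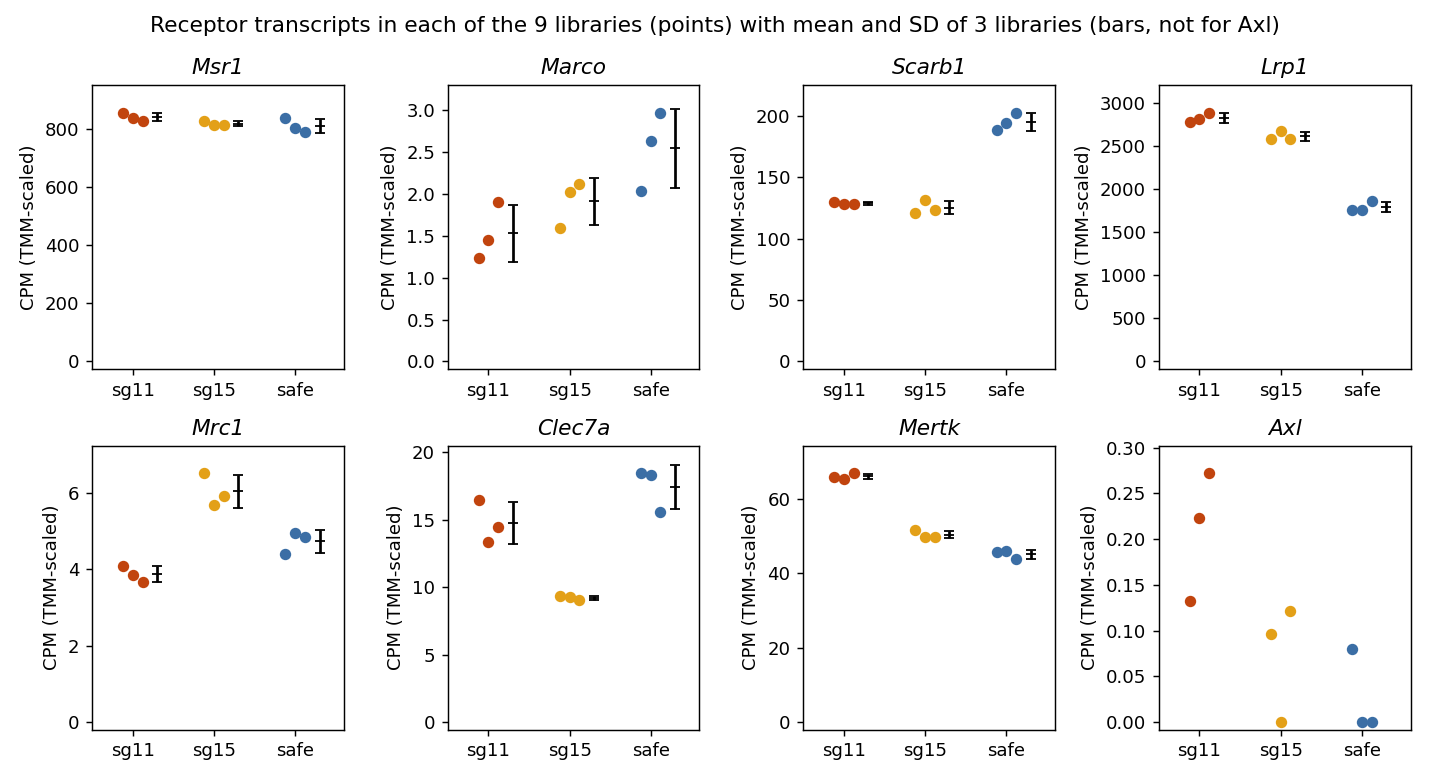
CPM (TMM-scaled, linear axes that include 0) of each receptor in each library (points), by guide, with mean and SD of 3 libraries (black bars; none for Axl); sg11, sg15 and safe stand for sgRNA 11, sgRNA 15 and safe sgRNA. Scarb1 is low with both Slc12a9 guides (121 to 131 CPM, against 188 to 203 CPM with safe sgRNA), Clec7a is lowest with sgRNA 15 (9.08 to 9.37 CPM), Mertk is highest with sgRNA 11 (65.4 to 66.9 CPM), and Axl stays under 0.3 CPM.

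Per kilobase of exon, which allows genes to be compared roughly with each other, the receptors spanned a wide range in this line. The length joins the exons of all annotated transcripts of a gene, and which transcripts were expressed was not examined. The order of genes at similar levels therefore depends on this choice of length. Lrp1 and Msr1 were the most abundant, at means of 159.8 and 132.5 CPM per kb with sgRNA 11, 147.7 and 129.0 CPM per kb with sgRNA 15 and 101.4 and 127.7 CPM per kb with safe sgRNA. Their order was Lrp1 over Msr1 with both Slc12a9 guides and Msr1 over Lrp1 with safe sgRNA, and in no group did the ranges overlap. The gap behind this switch depended on the scaling. After removal of GC content and length trends, the log fold change against safe sgRNA with sgRNA 11 was 0.48 for Lrp1 and 0.17 for Msr1. With sgRNA 15 it was 0.41 for Lrp1 and 0.01 for Msr1. Whether the order still switched under that setting was not tested. In CPM per kb, the ratio of Lrp1 to Msr1 was 1.16 to 1.25 with sgRNA 11, 1.12 to 1.18 with sgRNA 15 and 0.754 to 0.843 with safe sgRNA. Scarb1 and Mertk came next, at 15.1 and 15.3 CPM per kb with sgRNA 11, 14.7 and 11.6 CPM per kb with sgRNA 15 and 22.96 and 10.4 CPM per kb with safe sgRNA. These neighbours overlap with sgRNA 11 but not in the other groups. Clec7a followed at 5.60 CPM per kb with sgRNA 11, 3.50 CPM per kb with sgRNA 15 and 6.61 CPM per kb with safe sgRNA. Marco and Mrc1 were lowest among the tested receptors, between 0.608 and 1.32 CPM per kb as group means, and their ranges overlap with sgRNA 11 and sgRNA 15 but not with safe sgRNA. Averaged over all libraries, Lrp1 exceeded 97.5% and Msr1 97.4% of tested genes in CPM per kb, Scarb1 76.7%, Mertk 69.0%, Clec7a 48.2%, Marco 19.6% and Mrc1 16%. The 8 receptors together took 3857 to 3936 CPM with sgRNA 11, 3593 to 3688 CPM with sgRNA 15 and 2834 to 2923 CPM with safe sgRNA. Lrp1, whose exons are the longest at 17717 bases, held 72.2 to 73.5% of these reads with sgRNA 11, 71.7 to 72.6% with sgRNA 15 and 61.7 to 63.7% with safe sgRNA, before any correction for length.

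**Figure D3:**
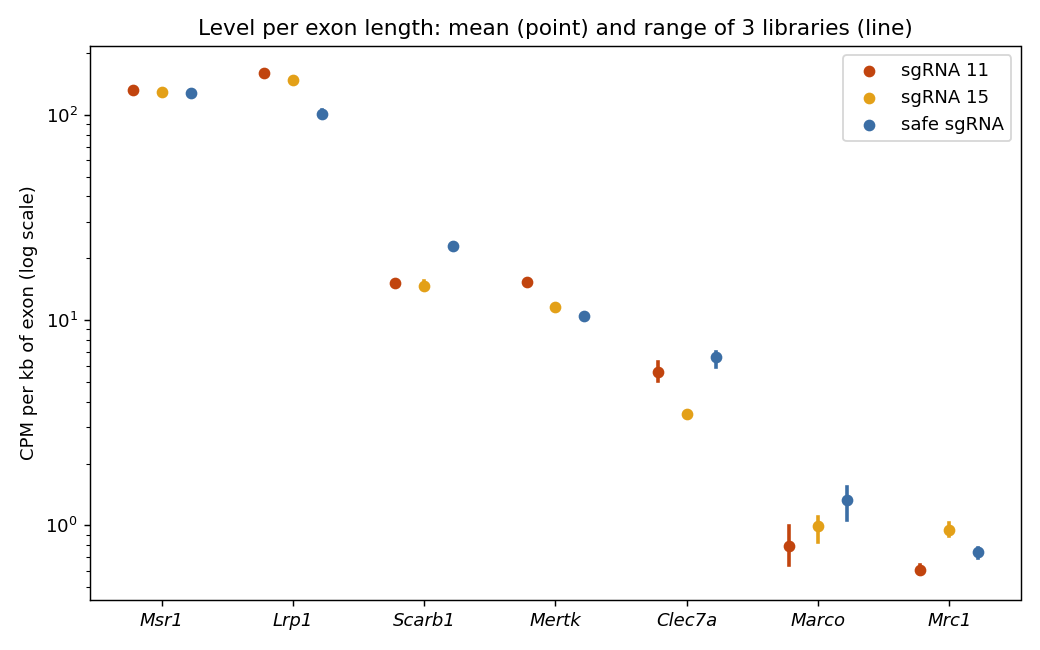
Mean level (points) and range of 3 libraries (lines, often hidden by the points) in CPM per kb of exon, on a log axis, for the 7 tested receptors in sgRNA 11, sgRNA 15 and safe sgRNA libraries. In these TMM-scaled values Lrp1 passes Msr1 with both Slc12a9 guides. Scarb1 is at 15.1 and 14.7 CPM per kb with these guides against 22.96 with safe sgRNA, and Marco and Mrc1 lie near 1 CPM per kb or below.

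The guides themselves differed at 4 of the 7 tested receptors. For sgRNA 15 against sgRNA 11, Mrc1 was higher and Lrp1, Mertk and Clec7a were lower, beside 33.5% of all tested genes called in this comparison, 18% higher and 15.5% lower. Groups did not overlap for these 4 receptors, where 42.8% of all tested genes did not overlap. Mrc1 was 1.56-fold higher with sgRNA 15 (log2 0.64, SE 0.15, edgeR adjusted p = 0.000207). Clec7a stood at 62.3% of its sgRNA 11 level (log2 -0.68, SE 0.09, edgeR adjusted p = 3.89e-09) and Mertk at 76.3% (log2 -0.39, SE 0.05, edgeR adjusted p = 9.29e-12). Lrp1 was slightly lower with sgRNA 15 (log2 -0.11, SE 0.02, edgeR adjusted p = 2.11e-05), and -0.07 after removal of GC content and length trends. Clec7a and Mrc1 changed more between the guides than 95.4% and 94.5% of all tested genes in absolute log2 fold change, and Mertk more than 85.5%. With glmTreat against a minimum log2 change of 0.5, edgeR called 0 of the 7 at an adjusted p under 0.05, beside 1.54% of all tested genes. At an unadjusted p under 0.05 it called 1 of the 7, and the share of all tested genes at that threshold was not examined. Msr1 (-0.04, 95% interval -0.08 to 0.01, edgeR adjusted p = 0.193) and Marco (0.31, 95% interval -0.18 to 0.80, edgeR adjusted p = 0.358) were not called. The Marco value was 0.16 without sgRNA 11 replicate 1 and 0.51 without sgRNA 11 replicate 3. For Msr1 a call was made after removal of GC content and length trends (-0.16, edgeR adjusted p = 7.80e-11) and with a minimum mean of 5 CPM (-0.05, edgeR adjusted p = 0.0450). Slc12a9 itself was lower with sgRNA 15 than with sgRNA 11 (log2 -0.39, edgeR adjusted p = 2.12e-10). Against safe sgRNA, it was called higher with sgRNA 11 (log2 0.43, edgeR adjusted p = 6.45e-13) and was not called with sgRNA 15 (log2 0.05, edgeR adjusted p = 0.426).

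For the 4 receptors called in the same direction with both guides, the genes with the most similar profile over the 9 libraries were found by the root mean square difference of log2 CPM, each gene centred on its own mean. Lrp1 was nearest to Plxnd1, a semaphorin receptor (difference 0.0209, log2 fold changes 0.64 with sgRNA 11 and 0.53 with sgRNA 15), followed by Rabac1 (0.0288) and Unc93b1 (0.0314), a carrier of Toll-like receptors to endosomes. Scarb1 was nearest to Sdc3, a heparan sulfate proteoglycan (0.0264, log2 fold changes -0.61 and -0.63), followed by U2af1 (0.0330) and Eml4 (0.0362). Mertk was nearest to Tmem63a (0.0382, log2 fold changes 0.56 and 0.20), followed by the tyrosine kinase Fes (0.0390) and the lysosomal membrane protein Laptm5 (0.0423). Clec7a had no neighbour as close. It also had fewer reads than Lrp1, Scarb1 or Mertk, at 150 to 462 per library, and the part of counting noise in its distances was not tested. Its nearest was Clec4a2, a C-type lectin with an inhibitory motif (0.0971, log2 fold changes -0.21 and -0.89), followed by the integrin subunit Itga6 (0.118) and the adaptor Dok2 (0.130). The search covered up to 9287 genes averaging 5 CPM or more, and these 9 libraries share their preparation and scaling.

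Other genes of uptake and efferocytosis were described through 9 lists, whose counts stand beside 33.3% higher and 32.4% lower over all tested genes with sgRNA 11, and 32.2% higher and 30.7% lower with sgRNA 15. Each pair of log2 fold changes gives sgRNA 11 and then sgRNA 15, both against safe sgRNA, and those printed without a p passed an edgeR adjusted p under 0.05 with each guide. Among 13 further scavenger receptors tested, 5 were higher and 6 lower with sgRNA 11, and 6 were higher and 5 lower with sgRNA 15 (median log2 -0.09 and 0.10, against 0.01 over all tested genes with each guide). Lrp8, an apolipoprotein E receptor, fell to 26.5 ± 1.58 CPM with sgRNA 11 and 42.0 ± 3.74 CPM with sgRNA 15, against 88.5 ± 1.60 CPM with safe sgRNA (log2 -1.74 and -1.07, edgeR adjusted p = 9.39e-48 and 8.75e-35). Scarb2, a lysosomal class B receptor related to SR-BI, rose (log2 0.53 and 0.39), and so did Stab1 (0.38 and 0.20). Of 14 other C-type lectins, 3 were higher and 5 lower with sgRNA 11, and 3 were higher and 8 lower with sgRNA 15 (median -0.01 and -0.13). Clec5a (0.85 and 0.66), Clec4d (0.57 and 0.56) and Mgl2 (0.20 and 0.31) rose, while Clec4a2 fell to 16.7 ± 1.38 CPM with sgRNA 11 and 10.5 ± 0.224 CPM with sgRNA 15, against 19.4 ± 0.614 CPM with safe sgRNA.

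Other receptors for apoptotic cells were mostly higher, 7 of 11 with sgRNA 11 (2 lower) and 8 of 11 with sgRNA 15 (3 lower), with median log2 fold changes of 0.62 and 0.79. Itgb5, an integrin subunit that binds Mfge8-coated cells, rose to 291 ± 2.08 CPM with sgRNA 11 and 206 ± 7.16 CPM with sgRNA 15, against 90.1 ± 2.26 CPM with safe sgRNA (log2 1.69 and 1.19, edgeR adjusted p = 3.78e-64 and 8.71e-52). Itgav, another integrin subunit of this list, did not rise. It was not called with sgRNA 11 (log2 -0.07, edgeR adjusted p = 0.163) and was lower with sgRNA 15 (-0.35, adjusted p = 4.30e-10). Cd300lf, a phosphatidylserine-binding receptor, rose to 7.97 ± 0.674 CPM with sgRNA 11 and 11.5 ± 0.682 CPM with sgRNA 15, against 3.44 ± 0.402 CPM with safe sgRNA (log2 1.23 and 1.76). Siglec1 (1.47 and 0.86) and S1pr1 (0.86 and 0.79) were higher too. Of 11 bridging molecules and opsonins, 9 were higher and 2 not called with sgRNA 11, and 8 were higher and 2 lower with sgRNA 15 (median 0.39 and 0.27). Mfge8, which links phosphatidylserine to integrins, stood at 73.5 ± 3.60 CPM with sgRNA 11, 62.5 ± 3.53 CPM with sgRNA 15 and 56.2 ± 3.46 CPM with safe sgRNA (log2 0.39 and 0.16). Lgals3, a galectin known to bind Mertk, rose (0.36 and 0.83), as did the complement protein C3 (0.44 and 0.36) and Apoe (0.28 and 0.27).

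Engulfment and digestion genes were split, with 8 of 20 higher and 7 lower with sgRNA 11, and 7 higher and 6 lower with sgRNA 15 (median -0.00 and -0.02). Slc2a1, the glucose transporter, fell (log2 -0.91 and -0.86) together with the Rac activator Vav2 (-0.55 and -0.43), while Rubcn, which acts in LC3-associated phagocytosis, and the Rac activator Dock2 rose (0.57 and 0.56, and 0.57 and 0.52). Of 12 partners, chaperones and adaptors of LRP1 and SR-BI, 7 were higher and 2 lower with sgRNA 11, and 7 were higher and 4 lower with sgRNA 15 (median 0.14 and 0.11). Furin, the protease that cleaves LRP1 into its mature chains, rose to 154 ± 3.11 CPM with sgRNA 11 and 167 ± 1.43 CPM with sgRNA 15, against 118 ± 6.69 CPM with safe sgRNA (log2 0.38 and 0.51). Lrpap1, the chaperone of LRP1, was higher by 0.12 and 0.21, Shc1 by 0.45 and 0.27, and Mylip, a ubiquitin ligase, by 0.40 and 0.69. Calr, the gene of calreticulin, fell (-0.35 and -0.49). Of 10 sheddases and their inhibitors, 8 were higher and 1 lower with sgRNA 11, and 7 were higher and 3 not called with sgRNA 15 (median 0.33 and 0.18). Ncstn, a gamma-secretase subunit, rose (0.65 and 0.62), and Timp2 (0.32 and 0.81) and Adam9 (0.20 and 0.26) did too. Bace1 also rose (0.89 and 0.59), but 32.5% of its exon length is shared with 3 genes on the other strand, so its value is uncertain.

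Dectin-1 signalling genes were higher in 11 of 19 and lower in 3 with sgRNA 11, and higher in 9 and lower in 5 with sgRNA 15 (median 0.10 and 0.01). With each guide 73.7% of this list was called, beside 65.8% of all tested genes with sgRNA 11 and 62.9% with sgRNA 15. Besides Syk and Card9, the tetraspanin Cd37, which is known to associate with dectin-1, rose to 275 ± 4.88 CPM with sgRNA 11 and 205 ± 2.25 CPM with sgRNA 15, against 107 ± 1.10 CPM with safe sgRNA (log2 1.36 and 0.94), and Nfatc1 rose (0.65 and 0.49). Of 28 transcription factors linked to these receptors, 14 were higher and 10 lower with sgRNA 11, and 13 were higher and 11 lower with sgRNA 15 (median 0.13 and 0.11). Klf4 rose to 56.6 ± 1.73 CPM with sgRNA 11 and 52.9 ± 1.51 CPM with sgRNA 15, against 15.7 ± 1.19 CPM with safe sgRNA (log2 1.84 and 1.74). Atf4 (0.66 and 0.87) and Cebpa (1.15 and 0.91) were also higher. Of the liver X receptors, which act on Mertk, Nr1h2 was higher (0.38 and 0.23, edgeR adjusted p = 3.70e-16 and 5.20e-08) and Nr1h3 was not called (0.17 and 0.26, edgeR adjusted p = 0.492 and 0.291).

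**Figure D4:**
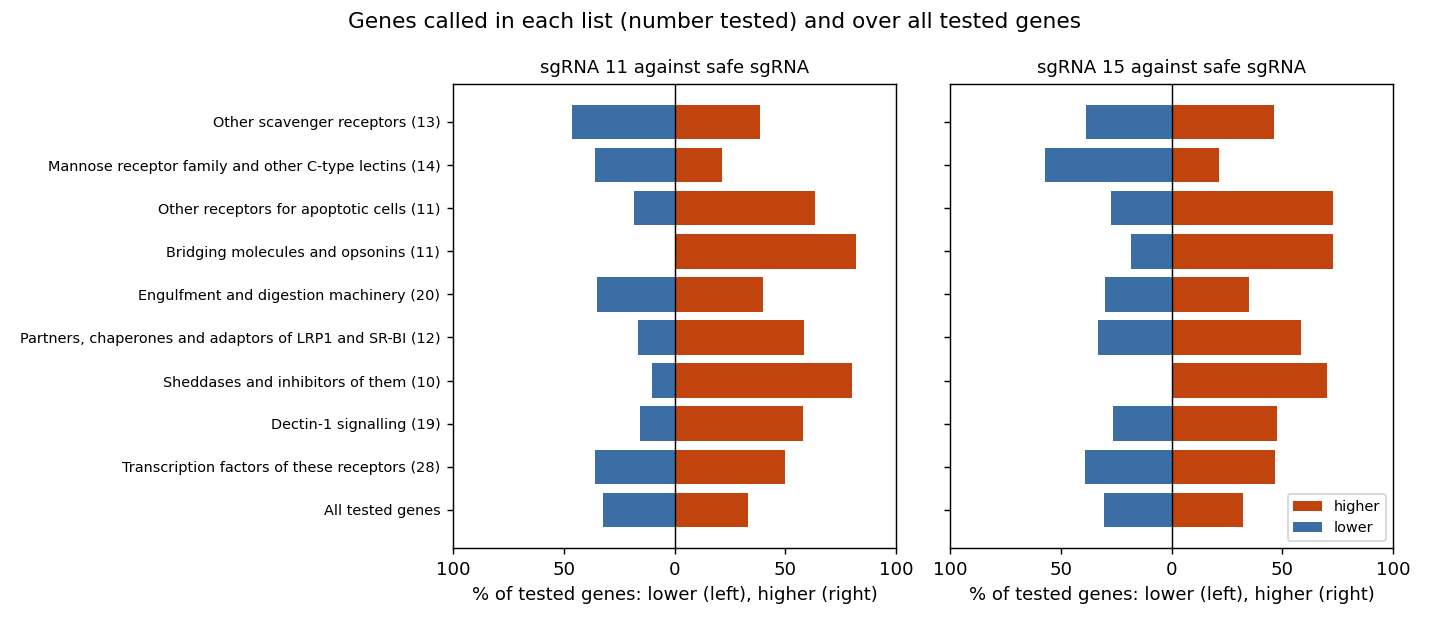
Share of the tested genes of each list (number tested in brackets) called higher (right, red) or lower (left, blue) at an edgeR adjusted p under 0.05, for sgRNA 11 and sgRNA 15 against safe sgRNA, with all tested genes in the last bar. Other receptors for apoptotic cells, bridging molecules and sheddases have more members higher than lower with both guides. So do, by smaller or larger margins, the lists of LRP1 and SR-BI partners, dectin-1 signalling, transcription factors and engulfment genes. Over all tested genes 33.3% were higher and 32.4% lower with sgRNA 11, and 32.2% were higher and 30.7% lower with sgRNA 15.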

How the data were processed

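Polyadenylated RNA of 9 libraries was compared, grouped by the guide in their labels. The deposited values are whole-number counts of reads per gene, made by the authors using STAR and HTSeq with mm10, per the submitters' processing notes. Their versions, and how HTSeq treated strand and overlaps with which annotation, were not given in the sources used here. Between 79.3 and 80.7% of reads were assigned to a gene. The tallies for reads in no feature (4.10 to 4.60%), ambiguous (6.32 to 6.56%), of low quality (1.45 to 2.03%), not aligned (0.794 to 1.06%) or aligned to several places (6.20 to 6.69%) stayed out of library sizes and tests.

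Symbols, positions and exon lengths came from GENCODE M21 (mm10), which named 55227 of 55487 identifiers. No exon base of a receptor was shared with another gene. The counts entered edgeR 4.0.16 (R 4.3.3, limma 3.58.1) after filterByExpr with a minimum count of 10. TMM factors ranged from 0.979 to 1.02, and a robust quasi-likelihood model of all 9 libraries left 6 residual degrees of freedom. Each comparison was a 2-sided F test with Benjamini-Hochberg adjustment over 13453 genes. The F statistic of a gene gave the standard error and 95% interval of its log2 fold change. The biological coefficient of variation was 2.82%, and no pair of replicates agreed within sampling noise. Intervals rest on the spread between libraries, and the floor of 3 counts covers counting error only.

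Receptors and lists were chosen with earlier results of these data known. From each list up to 4 genes were named, those that changed most in the guide with the smaller change, in the same direction with both guides and at a mean of at least 5 CPM; a few genes that meet this rule are not reported here. Direct partners of receptors, Itgav and the genes near Scarb1 were chosen after their values were seen. Alternatives were size factors by relative log expression, library size only, removal of GC content and length trends (spline offsets, 99.8% of tested genes), no filter, a minimum mean of 5 CPM, DESeq2 1.42.0, limma-voom, a minimum log2 change of 0.5 (glmTreat), only the groups compared, the replicate number as a block, and each library left out in turn.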

Additional observations from a re-analysis of the deposited data

Results flagged for a closer look

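Both Slc12a9 guides were set against the same controls, and 4 receptors differed between them by the edgeR test of sgRNA 15 against sgRNA 11 itself. The log2 difference was 0.64 for Mrc1, which was higher in 3 of 3 sgRNA 15 libraries than in any sgRNA 11 library. It was -0.11 for Lrp1, -0.39 for Mertk and -0.68 for Clec7a, each lower in 3 of 3 sgRNA 15 libraries. The adjusted p was 0.000207 for Mrc1, 2.11e-05 for Lrp1, 9.29e-12 for Mertk and 3.89e-09 for Clec7a, beside 33.5% of all tested genes called in this comparison. Groups of 3 libraries are too small for a rule on single outlying libraries, and none was applied.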

How the results depend on the processing

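Over 21 receptor results and 393 alternative values, 360 kept their direction and their side of the threshold, 27 lost a call, 3 gained one and 3 turned sign. The 3 that turned were Msr1 with sgRNA 15, which was not called at 0.01, without safe replicate 2 (-0.00767), without safe replicate 3 (-0.0187) and without sgRNA 11 replicate 3 (-0.000543), and the highest value with a library left out was 0.0324. A minimum log2 change of 0.5 (edgeR glmTreat) left 2211 of all genes called with sgRNA 11, 1741 with sgRNA 15 and 207 between the guides. It left 2 receptors with sgRNA 11 (Lrp1 and Scarb1), 2 with sgRNA 15 (Scarb1 and Clec7a) and 0 between the guides, where edgeR without that minimum called 4. This minimum asks for a larger change by construction. Calls lost or gained under other settings stand beside their receptor, besides Msr1 with sgRNA 11, also lost with size factors by relative log expression (edgeR adjusted p = 0.0735), DESeq2 (0.0890) and only the groups compared (0.0905), and Msr1 with sgRNA 15, called with library size only (0.05, edgeR adjusted p = 0.0359). Scarb1 kept its calls in all alternatives, from -0.71 to -0.57 with sgRNA 11 and from -0.73 to -0.60 with sgRNA 15. Leaving out each library in turn gave 8402 to 8903 genes called with sgRNA 11, 7957 to 8556 with sgRNA 15 and 3872 to 4581 between the guides, and 4 to 6, 4 to 5 and 4 to 4 receptors. Deviations of same-numbered replicates from group means correlated weakly and positively, at 0.0182 to 0.101, so pairing cannot be decided from these values. A fit with the replicate number as a block called 8940, 8550 and 4695 genes, beside 8849, 8459 and 4502 without it. The block changed no receptor call. Depth limits Axl, Marco and Mrc1, which had at most 6, 55 and 135 reads in any library.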
